A study of Homo sapiens with 6 samples.

Results

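Death receptors are cell surface proteins of the tumour necrosis factor (TNF) receptor superfamily whose cytoplasmic death domain can start apoptosis. When TRAIL (encoded by TNFSF10) binds TNFRSF10A or TNFRSF10B, or when FASLG binds FAS, the receptor recruits the adaptor FADD, which recruits the protease caspase-8 (CASP8). TNFRSF10C and TNFRSF10D bind TRAIL without passing on a death signal and are known as decoy receptors. TNFRSF1A is the main TNF receptor, TNFRSF21 (death receptor 6) is a further death domain receptor, and EDA2R binds the A2 form of ectodysplasin and lacks a death domain. The transcription factor p53 is known to induce TNFRSF10A to TNFRSF10D, FAS and EDA2R in many human cells.

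These 10 genes were taken by symbol from a gene count table of 53719 rows, and all 10 had a row. The set was chosen by a comparison of the same libraries, in which TNFRSF10B and EDA2R had been called lower in the knockdown, so the differences of its members are given as a description and without a test. RNA came from H9 human embryonic stem cells, an established line, grown in RSeT, a medium for naive-type pluripotency. Every culture received a gapmer, an antisense oligonucleotide that directs RNase H to the RNA it pairs with, and RNA was taken 48 h after transfection. The ALR knockdown group received a gapmer against ALR, the alpha satellite repeat RNA of human centromeres, and the control group received a control gapmer. Each group held 3 libraries, lettered a to c. The study used 1 cell line, and the titles of the 3 knockdown libraries carry 1 name, so loss of ALR and other effects of that gapmer cannot be told apart. The labels do not say whether the libraries of a group came from separate cultures, so errors and p-values measure only the spread between these libraries, which may be technical.

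Total counts per library lay between 25087629 and 36576752. Knockdown library a stood apart from the other 5, with a count in 29678 rows against 25898 to 26788. The level of ALR itself was not analysed here. Pluripotency markers summed to 5650 to 6200 counts-per-million units (CPM, on TMM-scaled library sizes) in the knockdown and 5520 to 5580 in the control, without overlap. The largest parts of this sum were DNMT3B and LIN28A. POU5F1, LIN28A and DNMT3B lay above the control in every knockdown library, and LIN28B and DPPA4 lay below it. Of these 8 genes 1, SOX2, was listed at 0 in all libraries. SOX2 lies within SOX2-OT, which had 1363 to 2047 counts, so a row listed at 0 is not read as an absent transcript. Markers of naive-type pluripotency summed to 67.6 to 74.9 CPM in the knockdown and 67.8 to 72.1 in the control, with the defining marker KLF17 at 0.353 CPM or less. Trophectoderm, endoderm and blood or endothelial marker sums stayed under 3.7 CPM, and their ranges overlapped between groups. Neuroectoderm markers summed to 354 to 402 CPM in the knockdown and 302 to 355 in the control, and mesoderm markers to 13 to 14.8 and 10.3 to 12.6. Nearly all of the neuroectoderm sum was 1 gene, NES, at 351 to 399 CPM in the knockdown and 299 to 352 in the control. Nearly all of the mesoderm sum was MIXL1, at 12.5 to 14.1 and 9.94 to 12.1 CPM. These sums are therefore not read as a signature of either cell type. Fibroblast markers summed to 87.7 to 96.5 CPM and 90.5 to 104, mostly from COL1A2 and COL1A1, with THY1 at 0. In edgeR's quasi-likelihood test, 0 marker genes of any list passed an adjusted p of 0.05, and their part in the results on the receptors was not tested.

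In the knockdown, 4 of the 10 genes lay below the control in every library: TNFRSF10B, TNFRSF10D, FAS and EDA2R. CASP8 lay above it in every library, and the ranges of the other 5 overlapped. Of all 19721 genes tested, 9.37% had every knockdown library below every control library and 9.55% had every knockdown library above. The adjusted threshold of the fit over all genes was passed by 2 of the 10, TNFRSF10B and EDA2R, where 0.786% of all genes tested passed. These shares are background only, because the choice of genes used this comparison. The median log2 fold change, knockdown over control, was -0.18 over the 10 genes and 0.02 over all genes tested. The 6 receptors known as p53 targets lay between -0.75 and -0.14, with a median of -0.38. The other 4 genes, TNFRSF1A, TNFRSF21, FADD and CASP8, lay between -0.01 and 0.11, with a median of 0.10. This split was made with earlier results of these libraries known. The 6 include TNFRSF10B and EDA2R, whose lower levels led to the choice of the set, and TNFRSF10A and TNFRSF10C, whose groups overlapped. Nothing is read from the difference between the medians. In bulk RNA, fewer cells that carry a transcript and less transcript per cell cannot be told apart. Without control library a, and again without control library c, 0 of the 10 passed the threshold, and without knockdown library b or control library b only EDA2R did.

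**Figure D1:**
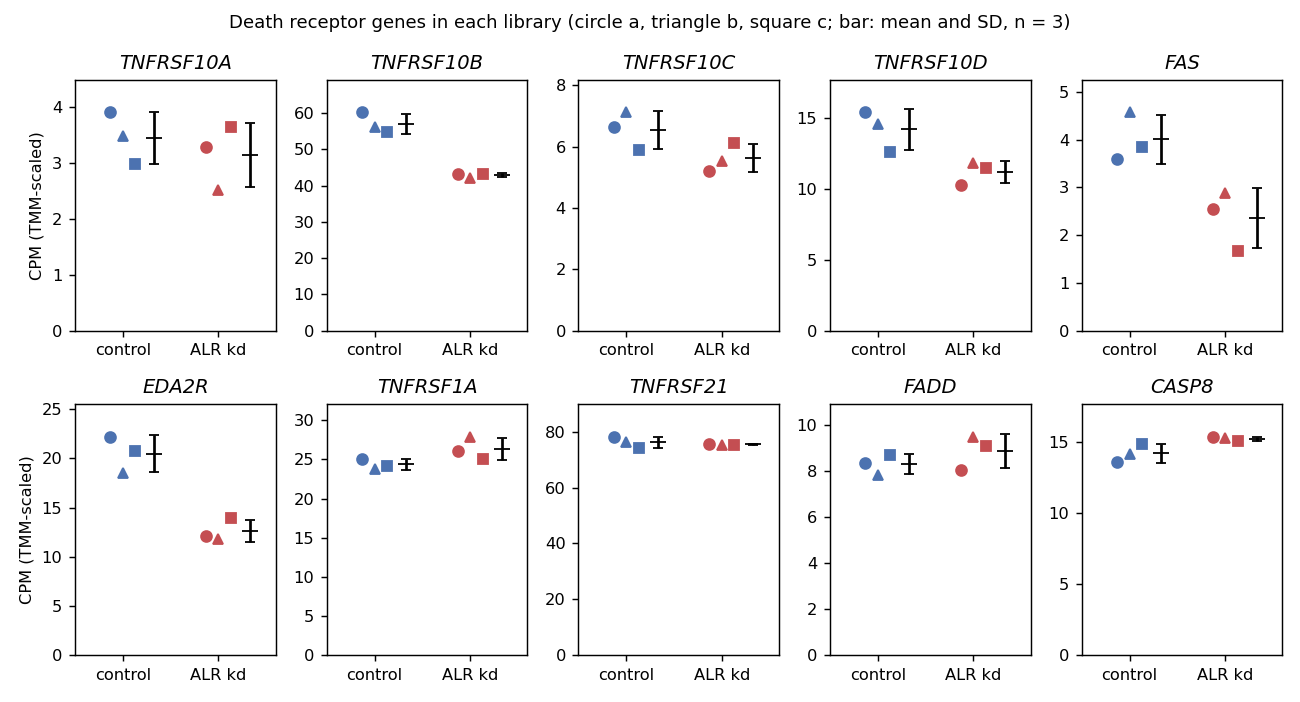
CPM of the 10 genes in each library, on a linear axis from 0 for each gene. Symbols are libraries a (circle), b (triangle) and c (square) of the control (blue) and the knockdown (red), and black bars are the group mean and SD (n = 3). TNFRSF10B, TNFRSF10D, FAS and EDA2R show no overlap between groups, with the knockdown lower.

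**Figure D2:**
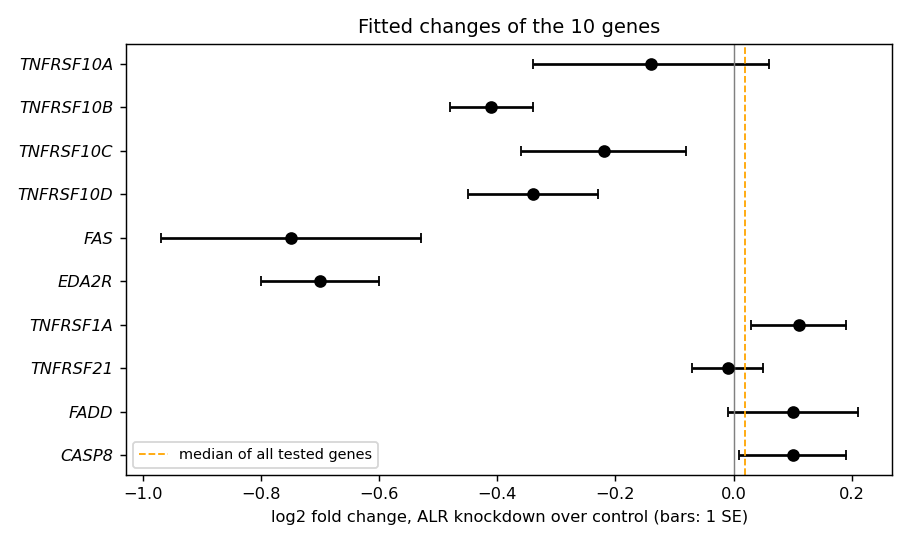
Log2 fold change of each of the 10 genes, knockdown over control, from the fit over all genes. Points are estimates, bars are 1 standard error, and the dashed line is the median of all tested genes. The 6 receptors known as p53 targets lie below 0, between -0.75 and -0.14, and the other 4 genes between -0.01 and 0.11. Library values of TNFRSF10A and TNFRSF10C, among the 6, overlapped between groups.

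TNFRSF10B, the TRAIL death receptor DR5, was the most abundant TRAIL receptor in both groups. It lies on chromosome 8, 23020133 to 23069179 on the minus strand (hg38, GENCODE 29; all gene positions here are from this annotation). Its level was 43.2, 42.2 and 43.1 CPM in the knockdown and 60.2, 56.1 and 54.7 CPM in the control (values by library are always in the order a, b, c). The knockdown libraries were within about 1 CPM of each other and all lay below the lowest control library. The means were 42.8 ± 0.542 and 57.0 ± 2.83 CPM (SD, n = 3 each), and the log2 fold change was -0.41 (SE 0.07), a level of 0.752 times the control. These values rest on 1089 to 1988 reads per library. RHOBTB2 overlaps TNFRSF10B on the opposite strand and had only 11 to 35 counts per library. The annotated antisense gene AC107959.2 also overlaps it and has no row in the counts, so its reads cannot be judged.

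TNFRSF10A, the other TRAIL death receptor (DR4), lies in the same cluster at 23190452 to 23225126 and was read at much lower depth, with 84 to 111 counts per library. It had 3.28, 2.52 and 3.64 CPM in the knockdown and 3.9, 3.48 and 2.97 CPM in the control. The groups overlapped, with knockdown library c above control libraries b and c. The log2 fold change was -0.14 (SE 0.20), so the sampling error was as large as the difference. The counts do not separate an equal level in the groups from a decrease of the size seen for TNFRSF10B. Annotated genes on the opposite strand overlap TNFRSF10A, and 12.4% of the 50-base stretches in its transcripts also occur in transcripts of other genes.

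TNFRSF10D, a decoy receptor with a shortened death domain (DcR2), lies at 23135588 to 23164030. It had 10.3, 11.8 and 11.5 CPM in the knockdown and 15.4, 14.6 and 12.6 CPM in the control. All 3 knockdown libraries were below the lowest control library, by less than 1 CPM for the closest pair. The means were 11.2 ± 0.804 and 14.2 ± 1.43 CPM (SD, n = 3 each), with a log2 fold change of -0.34 (SE 0.11), and this gene did not pass the threshold over all genes.

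TNFRSF10C, the decoy receptor that is held in the membrane by a lipid anchor (DcR1), lies at 23102590 to 23117437 on the plus strand. It had 5.22, 5.54 and 6.13 CPM in the knockdown and 6.65, 7.12 and 5.89 CPM in the control. Knockdown library c exceeded control library c, so the groups overlapped. The log2 fold change was -0.22 (SE 0.14). Annotated genes on the same strand overlap this one, and 35.4% of the 50-base stretches in its transcripts also occur in transcripts of other genes, so its count is less certain than that of TNFRSF10B (1.35%) or TNFRSF10D (0.831%). No 50-base stretch was shared among the TRAIL receptors or with any other of the 10 genes.

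Compared per kilobase of exon, the 4 TRAIL receptors together reached 15.2, 15.3 and 16.1 CPM per kb in the knockdown and 20.9, 20 and 18.3 CPM per kb in the control. The lowest control library was above the highest knockdown library. TNFRSF10B made up 53.5% ± 1.67 of this sum in the knockdown and 56.0% ± 1.74 in the control (SD, n = 3 each). The decoys TNFRSF10C and TNFRSF10D made up 37.5%, 41.1% and 40.5% in the knockdown and 37.8%, 39.7% and 36.6% in the control. These shares overlapped between groups. The decoy share averaged 39.7% ± 1.92 in the knockdown and 38.1% ± 1.54 in the control (SD, n = 3 each). The summed level was lower in the knockdown libraries, but its largest part was TNFRSF10B, whose lower level led to the choice of the set. The lower sum is therefore not a separate result on the 4 receptors as a group.

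**Figure D3:**
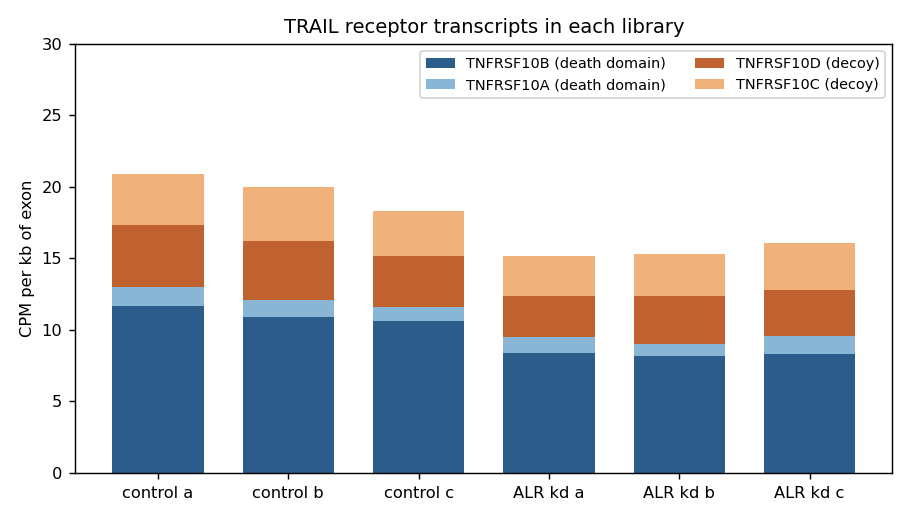
CPM per kilobase of exon of TNFRSF10A, TNFRSF10B, TNFRSF10C and TNFRSF10D, stacked for each of the 6 libraries on an axis from 0. The stacks reach 15.2 to 16.1 in the knockdown and 18.3 to 20.9 in the control, and TNFRSF10B is the largest piece in every library.

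FAS, the receptor of Fas ligand, lies on chromosome 10, 88990582 to 89015785 on the plus strand. It had 2.54, 2.88 and 1.66 CPM in the knockdown and 3.59, 4.57 and 3.85 CPM in the control. All 3 knockdown libraries were below the lowest control library, and knockdown library c was the lowest of all. The means were 2.36 ± 0.627 and 4.01 ± 0.51 CPM (SD, n = 3 each). The log2 fold change of -0.75 was the largest decrease among the 10 genes, and its standard error of 0.22 was also the largest. FAS rested on 42 to 142 reads per library and did not pass the threshold over all genes, except where the filter on low counts was dropped. ACTA2 overlaps FAS on the opposite strand, with 18 to 56 counts, and shares 7.09% of the 50-base stretches of FAS transcripts. The strand setting of the counting is not given in the sources used here, so reads of FAS and ACTA2 cannot be told apart in the shared stretches.

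EDA2R, on chromosome X at 66595637 to 66639298 on the minus strand, signals to NF-kappaB and JNK and is a known p53 target. It had 12.1, 11.8 and 13.9 CPM in the knockdown and 22.2, 18.5 and 20.8 CPM in the control. The highest knockdown library was well below the lowest control library. The means were 12.6 ± 1.12 and 20.5 ± 1.87 CPM (SD, n = 3 each), the log2 fold change was -0.70 (SE 0.10), and the counts behind it were 343 to 754 per library. No annotated gene overlapped EDA2R, and no 50-base stretch of its transcripts occurred in another gene.

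Stretches before an annotated start of 3 of the genes are shown for what they hold beside these levels: EDA2R and FAS, both lower in every knockdown library, and TNFRSF21, whose values overlapped between groups. The sequences are from RefSeq on GRCh38.p14, where 6 of the 10 genes had promoters that were used, with 11 windows of 250 bases before a start. Capitals mark the GC box GGGCGG, read on either strand, in EDA2R and TNFRSF21, and a p53 half-site in FAS. The EDA2R stretch is chrX:66639299-66639519 on the minus strand, the FAS stretch chr10:88991304-88991333 on the plus strand and the TNFRSF21 stretch chr6:47309906-47310155 on the minus strand.
EDA2R: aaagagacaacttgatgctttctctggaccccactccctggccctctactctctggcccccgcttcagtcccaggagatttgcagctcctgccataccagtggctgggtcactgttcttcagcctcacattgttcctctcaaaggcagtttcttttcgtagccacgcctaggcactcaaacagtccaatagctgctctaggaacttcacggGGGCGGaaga
FAS: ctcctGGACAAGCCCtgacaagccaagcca
TNFRSF21: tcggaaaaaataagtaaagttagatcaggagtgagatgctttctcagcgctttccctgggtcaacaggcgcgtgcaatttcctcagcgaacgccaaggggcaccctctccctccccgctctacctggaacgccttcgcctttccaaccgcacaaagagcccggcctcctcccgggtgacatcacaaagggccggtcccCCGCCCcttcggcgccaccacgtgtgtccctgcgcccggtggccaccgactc
The FAS match began 122 bases before one of its annotated starts, in a window whose 250 bases all lie in annotated exons. The GC box did not set these genes apart: it also occurred in all 3 windows of FAS, outside the stretch shown, in both windows of EDA2R, in FADD and in 1 window of CASP8. One window of CASP8 also held a p53 half-site, and no window of EDA2R, TNFRSF1A, TNFRSF21 or FADD did. Of 35116 promoter windows of the same length, 5.57% held a p53 half-site and 42.6% held a GC box. A match is a run of letters and not a measured binding site, and a window without one says nothing about binding elsewhere in the gene.

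TNFRSF1A and TNFRSF21, the death domain receptors of this set that are not counted here among p53 targets, were near the same level in both groups. TNFRSF1A (chromosome 12, 6328757 to 6342114) had 26.1, 27.9 and 25 CPM in the knockdown and 25.1, 23.8 and 24.2 CPM in the control. One knockdown library lay inside the control range, and the log2 fold change was 0.11 (SE 0.08). TNFRSF21 (chromosome 6, 47231532 to 47309905) had 75.7, 75.4 and 75.4 CPM in the knockdown and 78.2, 76.4 and 74.1 CPM in the control. The 3 knockdown libraries of TNFRSF21 lay within the control range. Its log2 fold change was -0.01 (SE 0.06), and 0.01 when libraries were scaled by their totals alone.

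FADD and CASP8 act downstream of the TRAIL receptors and FAS. FADD (chromosome 11, 70203163 to 70207390) had 8.04, 9.47 and 9.06 CPM in the knockdown and 8.34, 7.83 and 8.67 CPM in the control. The groups overlapped, with a log2 fold change of 0.10 (SE 0.11). An annotated antisense transcript covers 51.1% of the 50-base stretches of FADD, so its count is uncertain without the strand setting. CASP8 (chromosome 2, 201233443 to 201287711) had 15.4, 15.3 and 15.1 CPM in the knockdown and 13.6, 14.2 and 14.9 CPM in the control. All 3 knockdown libraries were above the highest control library, by a small margin, with a log2 fold change of 0.10 (SE 0.09).

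Levels were ordered per kilobase of exon over the control libraries, as CPM per kb (mean ± SD, n = 3). TNFRSF21 was highest at 21.2 ± 0.572, followed by TNFRSF10B at 11 ± 0.549. TNFRSF1A at 6.08 ± 0.163 and EDA2R at 5.73 ± 0.522 overlapped in their ranges. FADD at 4.5 ± 0.231 overlapped with TNFRSF10D at 4.01 ± 0.403, and TNFRSF10D with TNFRSF10C at 3.51 ± 0.331. CASP8 stood apart at 1.97 ± 0.0904, and TNFRSF10A at 1.17 ± 0.158 overlapped with FAS at 0.942 ± 0.12, the lowest. In the knockdown the level of EDA2R was 3.52 ± 0.313, below FADD at 4.81 ± 0.401 in every library, where the control had the reverse order. FAS at 0.555 ± 0.147 and TNFRSF10A at 1.07 ± 0.194 did not overlap in the knockdown. Within each library of either group FAS was the lower of the pair.

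The rest of the pathway was described with 91 further genes in 7 lists, of which 71 passed the filter on low counts. By edgeR's quasi-likelihood test with Benjamini-Hochberg adjustment over all genes, 0 rose and 1 fell, where 0.137% of all genes tested rose and 0.649% fell. At an unadjusted p under 0.05 there were 9 higher and 3 lower of the 71, where 6.68% of all genes tested were higher and 7.57% lower. The median log2 fold change of the 71 was 0.03, beside 0.02 over all genes tested. The gene that fell was SERPINB9, an inhibitor of the cytotoxic protease granzyme B. SERPINB9 had 208, 209 and 188 CPM in the knockdown and 303, 321 and 294 CPM in the control. The groups were far apart relative to their spread, and the log2 fold change was -0.60 (SE 0.07, adjusted p = 0.00195 in edgeR). It passed in 14 of 14 alternative settings, with adjusted p from 1.36e-14 to 0.0363. The row of granzyme B itself (GZMB) was listed at 0 in all 6 libraries.

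Transcripts of the listed ligands other than EDA were scarce. Of 8 ligand genes only EDA, which encodes ectodysplasin, the ligand of EDA2R and of EDAR, passed the filter. EDA had 108, 91.1 and 163 CPM in the knockdown and 183, 131 and 158 CPM in the control. The groups overlapped, and the log2 fold change was -0.38 (SE 0.18, edgeR adjusted p = 0.351). Gene counts do not separate the A1 and A2 forms of ectodysplasin. TNFSF10 (TRAIL) had 4, 4 and 7 reads in the knockdown and 9, 10 and 12 in the control. FASLG had 1, 2 and 1 reads in the knockdown and 0 in each control library. TNF had at most 1 read per library, LTA at most 4, LTB at most 6 and TNFSF15 at most 10. All 3 knockdown libraries of TNFSF10 lay below the control, at 0.141, 0.12 and 0.277 CPM against 0.317, 0.322 and 0.33 CPM. These ligands were below the filter on low counts and were not tested.

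Among 21 other receptors of the superfamily, 14 were tested and 0 passed by edgeR, with 3 higher and 0 lower at an unadjusted p under 0.05. The smallest p belonged to CD40, a receptor of immune and epithelial cells, with 5.53, 4.37 and 4.91 CPM in the knockdown and 3.17, 3.0 and 3.74 CPM in the control. Its log2 fold change was 0.58 (SE 0.17, edgeR adjusted p = 0.150). TNFRSF8 (CD30), a known surface marker of human pluripotent cells, had 13.7, 15.3 and 12.5 CPM against 10.6, 11.3 and 11.9 CPM, a log2 fold change of 0.30 (SE 0.11, adjusted p = 0.236). Both genes were above the control in every knockdown library without passing the threshold. TNFRSF25 and LTBR, named after their values were seen, were below the control in every knockdown library and did not pass either. Their log2 fold changes were -0.48 (SE 0.24, adjusted p = 0.38 in edgeR) and -0.46 (SE 0.22, adjusted p = 0.371).

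Of 27 adaptors and signalling proteins, 26 were tested and 0 passed, with 2 higher and 2 lower at an unadjusted p under 0.05 in edgeR. TRAF2, an adaptor of TNFRSF1A signalling, had 43.5, 49.7 and 49.8 CPM in the knockdown and 40.2, 36.7 and 41.1 CPM in the control, a log2 fold change of 0.28 (SE 0.08, adjusted p = 0.134). TRAF1, which pairs with TRAF2, had 3.17, 3.84 and 3.84 CPM against 1.62, 2.61 and 2.26 CPM, a log2 fold change of 0.74 (SE 0.22, adjusted p = 0.149). Neither showed overlap between groups. Without a filter on low counts TRAF1, TRAF2, EDA and the Fas-associated factor FAF1, named after its value was seen, passed the threshold beside SERPINB9.

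Among 9 inhibitors and regulators of caspases, 8 were tested and SERPINB9 alone passed. CFLAR, which encodes c-FLIP and blocks caspase-8 at the receptor, had 13.8, 15.3 and 15.3 CPM in the knockdown and 13.5, 15.0 and 13.7 CPM in the control. The groups overlapped, with a log2 fold change of 0.07 (SE 0.09); CFLAR was named for its role at the receptor, after its values were seen. Of 13 caspases and executioner genes 12 were tested and 0 passed in edgeR, with 2 higher at an unadjusted p under 0.05. One of them was DFFA, the inhibitor of a caspase-activated nuclease (log2 fold change 0.16, SE 0.07, adjusted p = 0.293 in edgeR).

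Of 4 necroptosis genes only MLKL, which encodes the pore-forming effector, was tested, at a log2 fold change of 0.22 (SE 0.24, adjusted p = 0.725 in edgeR) and with overlapping groups. All 9 NF-kappaB factors and feedback genes were tested and 0 passed in edgeR, with 1 higher at an unadjusted p under 0.05. This was REL, a NF-kappaB subunit, at 0.26 (SE 0.11, adjusted p = 0.312), followed by the inhibitor NFKBIA at 0.09 (SE 0.11, adjusted p = 0.751). The median over the 9 was 0.06.

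Outside the receptor family, 20 of 23 listed p53 target genes were tested. In edgeR's test 3 of the 20 fell and 0 rose, where 0.649% of all genes tested fell and 0.137% rose. At an unadjusted p under 0.05, 10 of the 20 were lower and 0 higher, where 7.57% of all genes tested were lower and 6.68% higher. The median log2 fold change of the list was -0.22, beside 0.02 over all genes tested. The list was written with earlier results of these libraries known and is not independent evidence of its direction. MDM2, which encodes the ubiquitin ligase of p53, had 179, 185 and 187 CPM in the knockdown and 251, 273 and 241 CPM in the control (log2 fold change -0.47, SE 0.07, adjusted p = 0.00652). CDKN1A, the cell cycle inhibitor p21, had 14.5, 14.3 and 15.8 CPM against 27.9, 23.0 and 19.9 CPM (-0.66, SE 0.12, adjusted p = 0.0240). ZMAT3, a RNA-binding protein, had 28.7, 26.5 and 26.5 CPM against 37.3, 40.6 and 33.7 CPM (-0.45, SE 0.08, adjusted p = 0.0281). In these 3 genes, named because they passed the threshold, every knockdown library lay below every control library. Of all genes tested, 9.37% had this order. SESN1, SESN2, TIGAR, DDB2, BTG2, SPATA18, PLK3 and POLH also had this order, without passing the threshold. They were named after their values were seen. Groups overlapped for the remaining tested genes of the list, among them BBC3, BAX and XPC. Whether the list and the receptors share a cause was not tested.

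**Figure D4:**
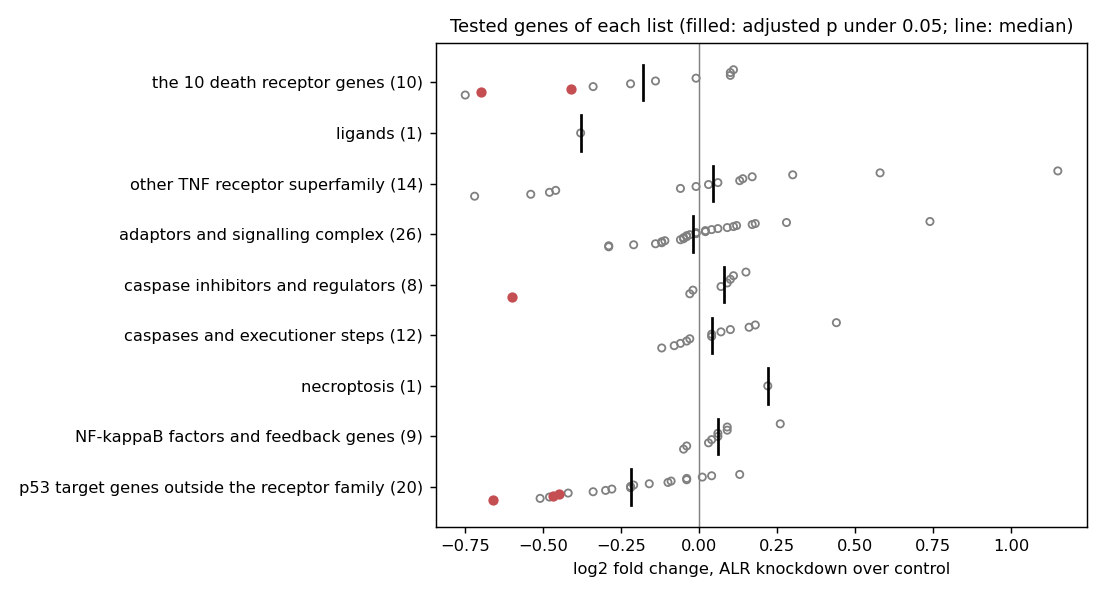
Log2 fold changes of the tested genes, knockdown over control, for the 10 death receptor genes, each of the 7 pathway lists and the p53 target list. Each point is a gene, filled where the adjusted p was under 0.05, and the vertical mark is the median of its list. The p53 target list has a median of -0.22 and the 10 genes -0.18, while the 9 NF-kappaB genes have a median of 0.06.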

How the data were processed

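The authors deposited raw read counts per gene symbol for 6 libraries, whole numbers with no scaling apparent. Per the submitters' processing notes, the build was hg38 and the tools were Trimmomatic 0.39, STAR 2.7.8a and featureCounts (Subread 2.14.2 is also named). Strand, overlap and multimapping settings and the annotation are not given in the sources used here. Per the labels' protocols, RNA was extracted with RNeasy and the library kit was NEBNext Ultra II Directional. In 28 rows the symbol was a calendar date; these rows, 0.207% of the counts, stayed in the fit. Of the value columns, 0 were left without a sample.

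The members, lists and tests were chosen with earlier results of these data known. Counts were fitted with edgeR 4.0.16 (R 4.3.3; filterByExpr, TMM, quasi-likelihood test, group as the only term, two-sided, Benjamini-Hochberg adjusted over 19721 genes, threshold 0.05). CPM used TMM-scaled library sizes, and CPM per kb the union exon length of GENCODE 29. The text names all 10 members and, from each list, genes past the threshold or otherwise the 2 with the smallest p, plus every ligand with a row. Some genes that this rule would name are not reported here. Promoter windows were searched on both strands for a p53 half-site (10 letters) and the GC box GGGCGG. Alternatives were DESeq2 1.42.0, limma-voom (limma 3.58.1), other scalings and filters, a replicate block and leaving out each library. The procedure was tested on simulated counts.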

Additional observations from a re-analysis of the deposited data

How the results depend on the processing

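All 140 recomputed log2 fold changes of the 10 members (10 genes under 14 alternatives) stayed within 1 SD of the reported value. This SD is that of log2 CPM between libraries of a group, pooled over both groups. Every alternative reuses all or most of the same libraries, so a larger move was unlikely beforehand and nothing is read from this. EDA2R passed the threshold in 12 of 14 (-0.80 to -0.63) and TNFRSF10B in 10 of 14 (-0.44 to -0.36); FAS ranged from -0.93 to -0.58 and TNFRSF10A from -0.27 to -0.00. The number of the 10 that passed was 2, against 3 with no low-count filter, where FAS passed too, and 0 to 2 when 1 library was left out. Their median of -0.18 became -0.29 to -0.12 when 1 library was left out, -0.29 without knockdown library c. The pathway genes called numbered 1, against 5 with no low-count filter and 1 to 4 when 1 library was left out; the 4 came without knockdown library c and were EDA, CRADD, FAF1 and SERPINB9.

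Over all genes 155 passed, 27 higher and 128 lower. DESeq2's Wald test gave 536, no low-count filter 1064, and leaving out 1 library 26 (without control library a) to 1309 (without knockdown library c); without the other libraries the count was 102 (knockdown a), 61 (knockdown b) and 42 (control b, and control c). Scaling by library size alone gave 56 higher and 102 lower, and by upper quartile 45 and 112. The cause of these moves was not tested. With the replicate letter as a block, 393 genes passed, all 155 among them. The same-letter deviations from the group means correlated at 1.23e-05 (a), 0.116 (b) and -0.0251 (c). Deviations from a mean of 3 libraries depend on each other, so these values cannot decide whether the letters pair libraries. The main fit used no block. Depth limits FAS, TNFRSF10A and all ligands but EDA.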

Other observations

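The 4 TRAIL receptor genes lie in one cluster, and their neighbours within 500 kb were examined after the members' values were known. The 12 tested neighbours had a median log2 fold change, knockdown over control, of 0.27, from -0.27 to 0.78, and 2 of the 12 were below 0. The median of the 4 receptors was -0.28. One neighbour passed the threshold over all genes, in the opposite direction to TNFRSF10B. This was LOXL2, a lysyl oxidase that cross-links collagen, with 11.5, 10.8 and 12.1 CPM in the knockdown and 6.61, 7.89 and 8.12 CPM in the control. Its log2 fold change was 0.60 (SE 0.12, edgeR adjusted p = 0.0349), and it passed in 9 of 14 alternatives, with adjusted p up to 0.166. Near EDA2R, HEPH was the only tested neighbour, at 0.02.

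Near FAS, 6 tested neighbours had a median of -0.24, and near TNFRSF1A 27 had a median of 0.16, with none called in edgeR's test. The number of neighbours is small at each locus, and no test was made of whether a receptor differs from its neighbours.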
